A study of Glycine max with 12 samples.

Results

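*Glyma.17G047300* and *Glyma.09G072000* are 2 of the 53808 soybean genes counted in flower buds, and both carry the annotated name of the *Arabidopsis* ethylene-responsive transcription factor ERF017. They were chosen by their measured levels, because both stood high in heated buds of an overexpression line and were listed as moving in opposite directions with heat in that line and in its recipient. The line differences at high temperature and the heat changes given for them are therefore a description, with no test. RNA-seq covered 4 groups of 3 libraries: *GmMYB21a-OE2* (OE2) at high temperature (HT), its recipient Tianlong No. 1 (TL1) at HT, OE2 at normal temperature (NT) and TL1 at NT. TL1 is a restorer line for cytoplasmic male sterility, and OE2 is TL1 carrying a *GmMYB21a* overexpression construct. HT was 40 °C by day and 34 °C by night, and NT was 28 °C and 22 °C. The study's general growth methods give 5 d of HT, while its RNA-seq methods state no duration. All 12 libraries came from whole flower buds taken at several heights of the plant, so fewer cells of a type and less RNA per cell cannot be told apart. OE2 is a single transgenic line, so the transgene and other features of that line cannot be told apart either. The groups follow the library titles, since the treatment entry names high temperature for the NT libraries as well.

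ERF proteins form a large family of plant transcription factors that bind DNA through the AP2 domain. Many of them act downstream of ethylene, a gaseous hormone made from 1-aminocyclopropane-1-carboxylate (ACC), and others belong to the DREB branch, which is known for responses to drought, cold and heat. In *Arabidopsis*, ERF017 is placed in the DREB branch, and the annotation gives the soybean genes this name by similarity alone. *GmMYB21a* is a MYB transcription factor, and its *Arabidopsis* relative MYB21 is known as a jasmonate-responsive regulator of stamen development.

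By their identifiers the genes lie on chromosomes 17 and 9, and another gene with the same annotated name, *Glyma.13G112400*, lies on chromosome 13. Soybean keeps many duplicated genes from ancient whole-genome duplication, and reads of close copies can be shared between them in ways that deposited counts do not show. All 3 genes had reads in each of the 12 libraries. Levels are given as CPM, counts scaled to a fixed total per library, which are not divided by gene length, so they compare groups for 1 gene and not genes with each other.

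The third heated OE2 library stood apart from the other 2 of its group. Its chi-square per degree of freedom over all genes was 14.8 against the first library and 11.7 against the second, while those 2 differed by 4.67 and no pair of replicates in another group exceeded 5.09. Across genes it correlated at r = 0.989 and 0.991 with the other 2, which had r = 0.994 between them. The HT line differences of the genes named ERF017 and the counts of changed AP2-domain genes are therefore also given without it. Most other values that use this library are given only with it.

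*Glyma.17G047300* had 7.76, 8.30 and 10.3 CPM in OE2 at HT, against 0.28, 0.0759 and 0.358 CPM in TL1 at HT. At NT the gene had 0.894, 0.631 and 1.22 CPM in OE2, against 0.928, 1.2 and 1.0 CPM in TL1. The lowest heated OE2 library thus stood above every other library, every heated TL1 library stood below all NT libraries, and the NT libraries of the lines overlapped. In order of the mean level, OE2 at HT came first with 8.80 ± 1.36 CPM, followed by TL1 at NT with 1.04 ± 0.14 CPM, OE2 at NT with 0.916 ± 0.296 CPM and TL1 at HT with 0.238 ± 0.145 CPM (SD, n = 3 each). The neighbours TL1 at NT and OE2 at NT did not differ beyond their spread.

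At HT, *Glyma.17G047300* was 38.8-fold higher in OE2 than in TL1, a log2 fold change of 5.28 with a standard error (SE) of 0.29. This was the second largest positive line difference among the 41260 genes fitted at HT. With heat it was 9.60-fold higher in OE2, a log2 fold change of 3.26 (SE 0.21), and in TL1 the log2 fold change was -2.14 (SE 0.44), which left 0.226 of the NT level. The heat change in OE2 minus that in TL1 was 5.42 on the log2 scale (SE 0.43). Without the third heated OE2 library, where the gene was highest, these log2 values were 5.15 (SE 0.27) between the lines at HT, 3.13 (SE 0.21) with heat in OE2 and 5.29 (SE 0.44) for the difference of heat changes.

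The lower end of this pattern rests on few reads. The heated TL1 libraries had 10, 3 and 12 counts of *Glyma.17G047300*, against 33, 40 and 32 counts in the NT libraries of TL1. The exact Poisson 95% interval of the library with 3 counts runs from 0.619 to 8.77 counts. That of the heated TL1 library with 12 counts reaches up to 20.96 counts. The interval of the NT TL1 library with 32 counts reaches down to 21.89 counts, so the margin between them is thin. These intervals cover counting error only. The gene was chosen for this pattern, so they are no test of the heat change. The heated OE2 libraries had 294, 348 and 404 counts. The coefficient of variation between replicates was 15.5% in OE2 at HT and 61.2% in TL1 at HT, where counting alone would give 5.36% and 34.6%.

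*Glyma.09G072000* had 46.2, 45.7 and 43.2 CPM in OE2 at HT, against 5.68, 5.82 and 8.19 CPM in TL1 at HT. At NT it had 8.24, 7.89 and 8.27 CPM in OE2, against 7.91, 8.74 and 8.69 CPM in TL1. The heated OE2 libraries again stood above every other library and lay close together. Among the other groups the ranges overlapped: the third heated TL1 library, at 8.19 CPM, lay above the lowest NT library of TL1. The order of the means was OE2 at HT with 45.0 ± 1.6 CPM, TL1 at NT with 8.45 ± 0.47 CPM, OE2 at NT with 8.13 ± 0.21 CPM and TL1 at HT with 6.57 ± 1.41 CPM (SD, n = 3 each). None of the neighbours below OE2 at HT were apart by more than their ranges.

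At HT, *Glyma.09G072000* was 7.10-fold higher in OE2 than in TL1, a log2 fold change of 2.83 (SE 0.12). It was 5.54-fold higher with heat in OE2, a log2 fold change of 2.47 (SE 0.08). In TL1 the heat change was -0.36 (SE 0.13) on the log2 scale, well short of the 2-fold change that counts as a call here. It was -0.55 without the third heated TL1 library, and leaving out single libraries in turn gave values between -0.55 and -0.27. The opposite heat directions listed for the pair were therefore clear for *Glyma.17G047300*, while for *Glyma.09G072000* the groups of TL1 overlapped. Its heat change in OE2 minus that in TL1 was 2.84 (SE 0.15), and most of that difference lay in OE2. Without the third heated OE2 library the log2 values were 2.86 (SE 0.11) between the lines at HT and 2.87 (SE 0.15) for the difference of heat changes.

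**Figure D1:**
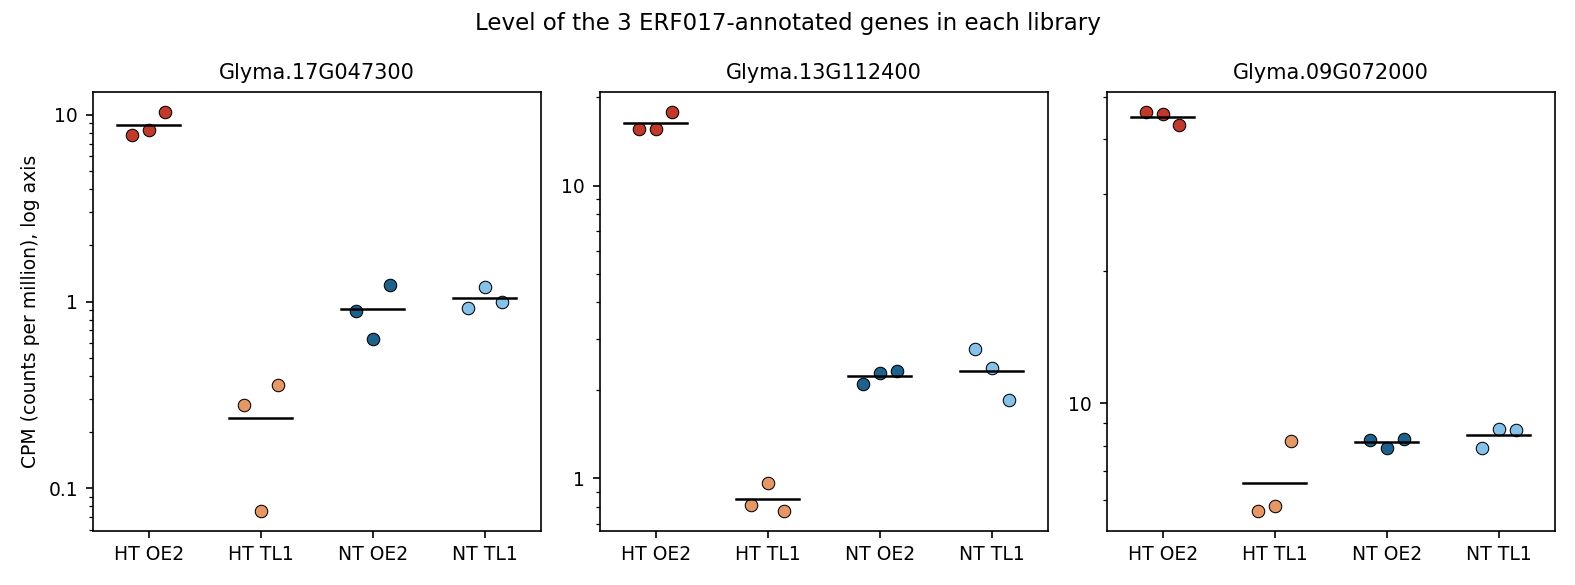
Level of *Glyma.17G047300*, *Glyma.13G112400* and *Glyma.09G072000* in CPM on a log axis, with 1 point per library and a bar at the mean of 3 libraries. Heated OE2 stands above the other groups in each panel, and heated TL1 stands below both NT groups for *Glyma.17G047300* and *Glyma.13G112400* but overlaps them for *Glyma.09G072000*, where 1 heated TL1 library reached 8.19 CPM.

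The line comparison at NT asks whether the difference was also present without heat. The levels in all 4 groups were in view when the genes were chosen, and the NT libraries enter their heat changes, so this comparison too is a description. The log2 fold change of OE2 over TL1 was -0.19 (SE 0.31) for *Glyma.17G047300* and -0.06 (SE 0.10) for *Glyma.09G072000*, each smaller than its SE, and the NT libraries of the lines overlapped for both. This does not show equal levels, and *Glyma.17G047300* was read from 22 to 42 counts per library at NT.

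*Glyma.13G112400*, the other gene named ERF017, had 15.6, 15.6 and 17.8 CPM in OE2 at HT, against 0.812, 0.962 and 0.775 CPM in TL1 at HT. At NT it had 2.1, 2.3 and 2.33 CPM in OE2, against 2.76, 2.37 and 1.84 CPM in TL1. Its order of groups was that of *Glyma.17G047300*, with the NT groups overlapping and heated TL1 below them. The log2 fold change was 4.30 (SE 0.15) between the lines at HT, 2.87 (SE 0.12) with heat in OE2 and -1.44 (SE 0.26) with heat in TL1. Without the third heated OE2 library it was 4.24 (SE 0.16) between the lines at HT and 2.80 (SE 0.13) with heat in OE2. At NT it was -0.06 (SE 0.20, edgeR adjusted p = 0.896).

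The sum of the 3 genes does not depend on how shared reads were divided among them, provided each was counted once. How shared reads were counted is not given, and sharing with further copies would still affect the sum. The sum was 70.2 ± 1.0 CPM in OE2 at HT and 7.65 ± 1.45 CPM in TL1 at HT, and 11.3 ± 0.5 CPM in OE2 at NT and 11.8 ± 0.4 CPM in TL1 at NT (SD, n = 3 each). The log2 fold change of the sum was 3.25 (SE 0.11) between the lines at HT and -0.07 (SE 0.09) at NT. With heat it was 2.64 (SE 0.08) in OE2 and -0.62 (SE 0.11) in TL1. *Glyma.09G072000* gave 64.2 ± 3.2% of the summed counts in OE2 at HT and 85.5 ± 2.1% in TL1 at HT, against 72.1 ± 1.9% in OE2 at NT and 71.5 ± 3.6% in TL1 at NT. *Glyma.17G047300* gave 12.5 ± 1.8% in OE2 at HT and 3.02 ± 1.67% in TL1 at HT, against 8.05 ± 2.26% in OE2 at NT and 8.81 ± 0.88% in TL1 at NT. The copies therefore did not keep 1 ratio across the groups: *Glyma.09G072000*, with the smallest heat change in both lines, took the largest share in heated TL1 and the smallest in heated OE2.

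The genes with the identifiers next to the pair in the count table, looked up after the values were seen, did not share the pattern. *Glyma.17G047200* had log2 heat changes of -2.13 (SE 0.11) in OE2 and -1.77 (SE 0.10) in TL1, and *Glyma.17G047401* had -2.21 (SE 0.26) and -2.65 (SE 0.25). Both fell with heat in each line in the edgeR test. Beside *Glyma.09G072000*, *Glyma.09G071800* had heat changes of 0.81 (SE 0.09) in OE2 and 0.60 (SE 0.07) in TL1, and *Glyma.09G072100* had -0.70 (SE 0.08) and -0.28 (SE 0.05).

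Few genes were called in opposite directions by heat in the lines. A gene was called at an adjusted p under 0.05 by edgeR's quasi-likelihood test and a change of at least 2-fold. Of 40950 genes tested in both, 80 (0.195%) were called higher at HT in OE2 and lower at HT in TL1, and 6 were called the other way round. *Glyma.17G047300* and *Glyma.13G112400* are among the 80 and *Glyma.09G072000* is not. Since this pattern chose the genes, nothing is read from their place in it. *Glyma.17G047300* had the largest heat change in OE2 of the 80, and its difference between heat changes was the second largest among them. Along the whole scale its difference ranked 37th and that of *Glyma.09G072000* 243rd of 42839 genes.

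The wider family was read from 22 genes with an AP2 domain in the part of the study's annotation that could be read. These 22 had been listed because they differed between the lines at HT, so a difference at HT follows from that choice and nothing is read from it. Of the 22, 21 were called higher in OE2 at HT, where 1.94% of all genes tested were called higher, and the median log2 fold change was 1.36 over the list and 0.00 over all genes. Of the 4 largest values 3 belonged to the genes named ERF017. The other was 3.85 (SE 0.36) for *Glyma.09G147200*, named after DREB1D, an *Arabidopsis* factor of the drought response. The gene that was not called, *Glyma.04G062900*, had 1.04 (SE 0.32). Without the third heated OE2 library, 20 were called higher at HT.

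At NT 2 of the 22 AP2-domain genes, both named DREB1D, had too few reads to be tested. None of the 20 AP2-domain genes tested were called by edgeR, and none by DESeq2, where edgeR called 0.949% of the 41292 genes tested. By edgeR 8 of the 20 had an unadjusted p under 0.05, 1 of them higher in OE2, and so did 24.2% of all genes tested, in either direction. At the adjusted p alone 4 of the 20 were lower in OE2 at NT, where 4.86% of all genes tested were lower by that rule. The 4 were *Glyma.05G063500* and *Glyma.11G036400*, named ERF5, with log2 fold changes of -0.27 (SE 0.06) and -0.30 (SE 0.09), *Glyma.12G117000*, named ERF4, with -0.28 (SE 0.08), and *Glyma.08G137600*, named ERF060, with -0.41 (SE 0.10). The median over the list was -0.10, and -0.01 over all genes.

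**Figure D2:**
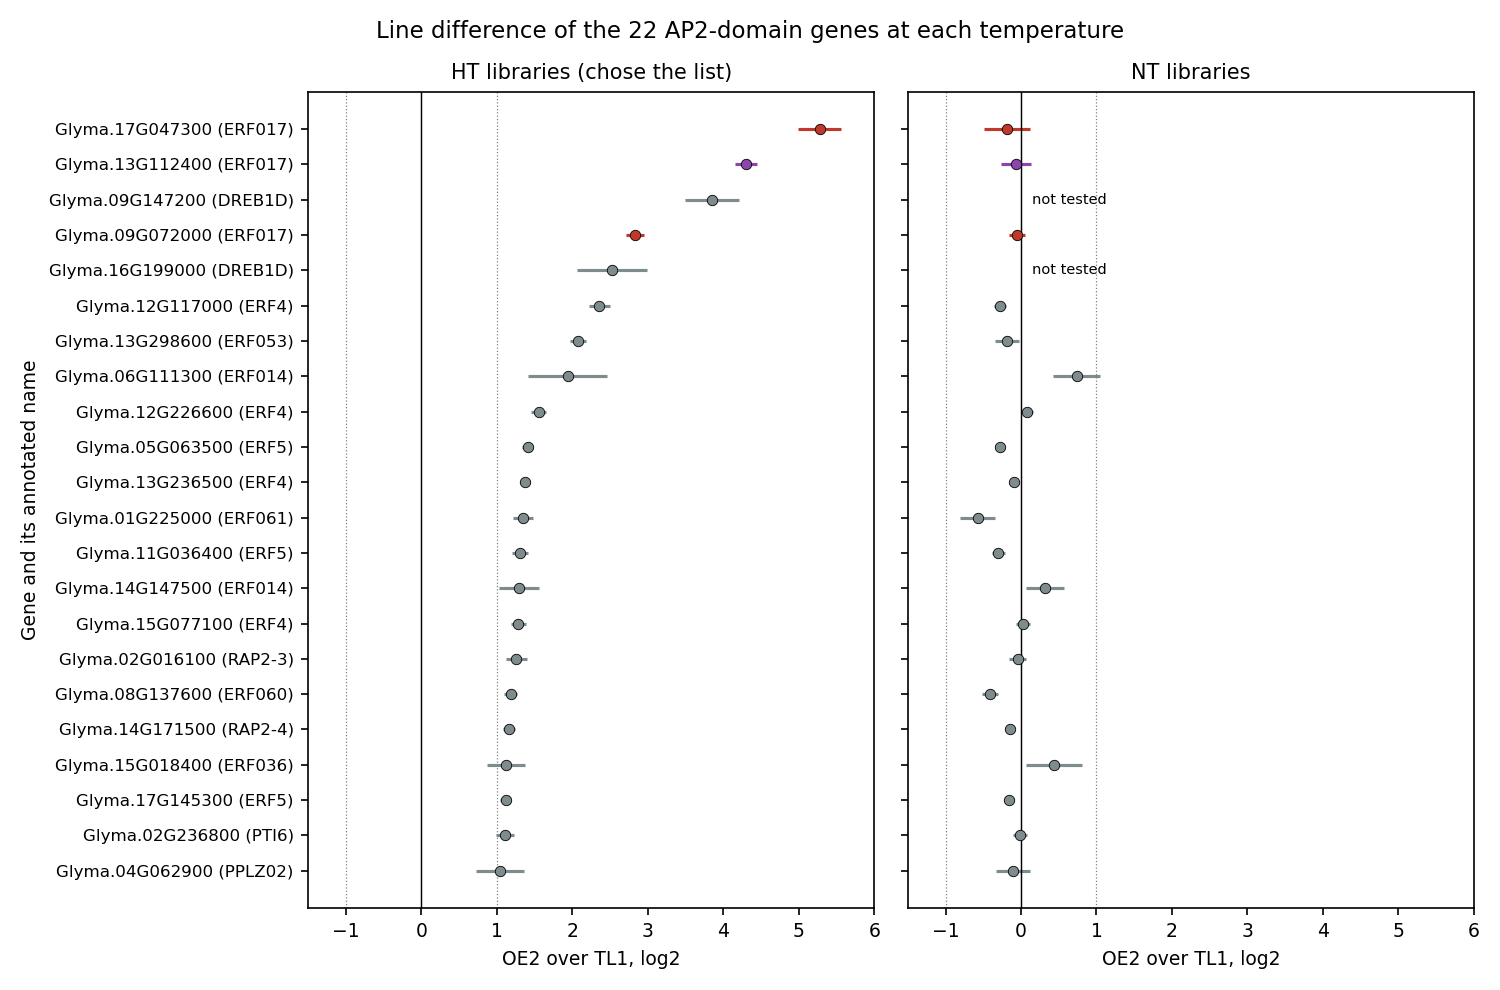
Log2 fold change of OE2 over TL1 for the 22 AP2-domain genes, in the HT libraries (left) and the NT libraries (right), with bars of 1 SE and dotted lines at a 2-fold change. At HT the genes named ERF017 reach 5.28, 4.30 and 2.83, while at NT the 20 genes tested lie between -0.57 and 0.74.

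The heat changes use the same HT libraries that chose the AP2-domain list. In OE2, 16 of the 22 were called higher with heat and 0 lower, and 10.6% of all genes tested were called higher. Both genes named DREB1D are among the 16. They passed the filter only through their reads in heated OE2 and were not tested in TL1. The counts of the lines therefore come from different sets of genes. In TL1, 2 of 20 were called higher and 5 lower, where 8.55% of all genes tested were called higher and 14.7% lower. The median log2 heat change was 1.72 over the list in OE2 (0.01 over all genes) and -0.18 in TL1 (0.00 over all genes). The heat change was greater in OE2 than in TL1 by the call of the interaction for 17 of the 22, and for 2.43% of all genes. Of these 17, 1 was a gene named DREB1D. Without the third heated OE2 library, 15 were called higher with heat in OE2 and 16 by the interaction.

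Heat responses within the family were of several kinds. *Glyma.01G225000* (ERF061) and *Glyma.08G137600* (ERF060) rose with heat in both lines, by log2 fold changes of 3.10 (SE 0.17) and 2.79 (SE 0.10) in OE2 and of 1.23 (SE 0.18) and 1.25 (SE 0.08) in TL1. *Glyma.02G016100*, named RAP2-3, fell in TL1 with -1.63 (SE 0.12) and had -0.38 (SE 0.13) in OE2. *Glyma.04G062900* also fell in TL1, with -1.53 (SE 0.30), and had -0.43 (SE 0.24) in OE2. *Glyma.06G111300*, named ERF014, fell in TL1 with -1.25 (SE 0.46) and had -0.11 (SE 0.38) in OE2. The other 2 called lower in TL1 were *Glyma.17G047300* and *Glyma.13G112400*, and of the 20 genes tested in both lines only these 2 were called in opposite directions.

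The 4 genes named ERF4, which in *Arabidopsis* acts as a repressor, had heat changes of 0.91 to 2.13 in OE2 and of -0.50 to -0.17 in TL1, and 3 of them were called higher in OE2. *Glyma.12G117000* was the largest of these, with 60.8 to 95.4 CPM in OE2 at HT and 13.3 to 16.7 CPM in TL1 at HT, with 15.3 to 19.4 CPM in OE2 at NT and 20.3 to 21.2 CPM in TL1 at NT. The 3 genes named ERF5 were called higher in OE2 with heat, by 1.38 to 1.80, and in TL1 had -0.17 to 0.48. Of all genes tested, 10.6% were called higher with heat in OE2. The genes named ERF4 and ERF5 had been listed for their HT difference, so their calls follow in part from that choice. In TL1, *Glyma.12G117000* had a heat change of -0.46 (SE 0.08), beside the -0.36 of *Glyma.09G072000*.

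**Figure D3:**
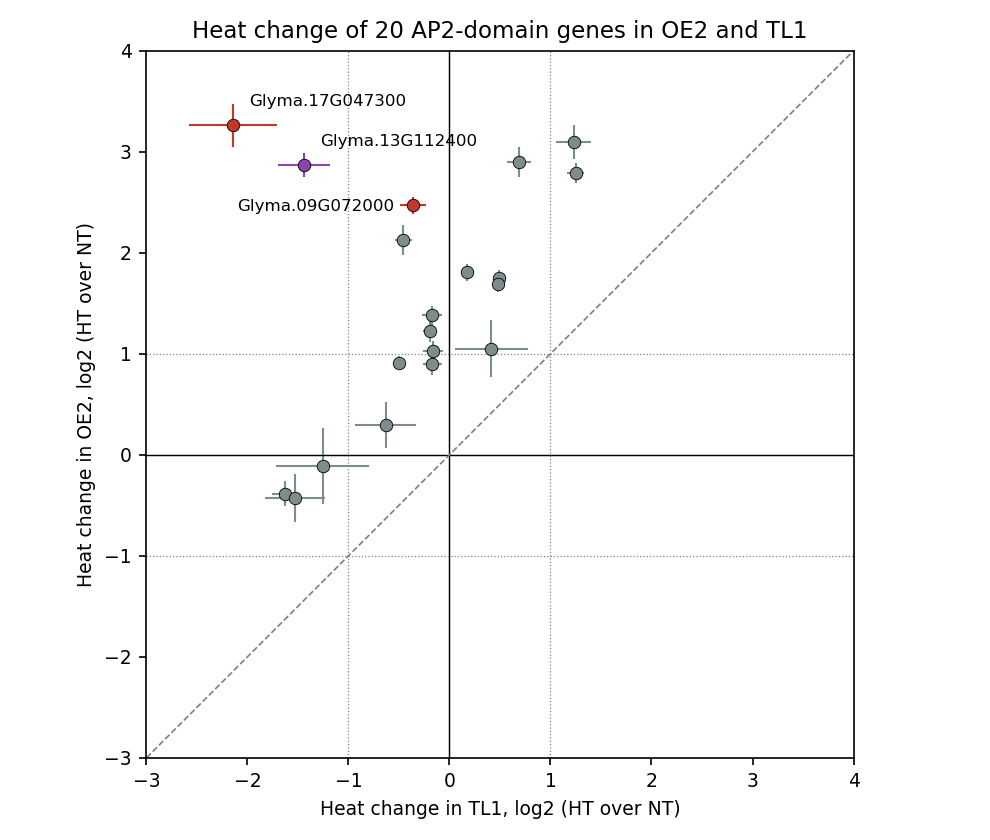
Log2 heat change (HT over NT) in OE2 on the vertical axis against TL1 on the horizontal axis for the 20 AP2-domain genes tested in both lines, with bars of 1 SE, dotted lines at a 2-fold change and a dashed line of equal change. *Glyma.17G047300* (3.26 in OE2, -2.14 in TL1) and *Glyma.13G112400* (2.87, -1.44) lie in the upper left corner beyond the dotted lines, and *Glyma.09G072000* (2.47, -0.36) lies inside the dotted line for TL1.

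ACC synthase makes the precursor of ethylene, and 3 genes of that name were in the same annotation, listed for their HT difference as well. *Glyma.05G211700* had 18.4 ± 0.5 CPM in OE2 at HT and 5.78 ± 0.41 CPM in TL1 at HT, and 6.13 ± 0.59 CPM in OE2 at NT and 5.93 ± 0.32 CPM in TL1 at NT (SD, n = 3 each). Like *Glyma.09G072000* it was high in the heated OE2 libraries alone. *Glyma.08G018000* had 32.7 ± 1.5 CPM in OE2 at HT and 12.6 ± 1.1 CPM in TL1 at HT, against 28 ± 1.1 CPM in OE2 at NT and 24.8 ± 2.4 CPM in TL1 at NT. Its heat change was 0.23 (SE 0.08) in OE2 and -0.97 (SE 0.09) in TL1, so the HT difference of that gene lay mostly in TL1. *Glyma.07G065700* was lower in OE2 at HT, with 0.708 ± 0.218 CPM against 1.77 ± 0.39 CPM in TL1. At NT none of the 3 was called by edgeR or DESeq2, and 1 had an unadjusted p under 0.05 by edgeR. Over all genes tested at NT, edgeR called 0.949% and gave an unadjusted p under 0.05 for 24.2%, so nothing is read from these counts.

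The genes with the most similar profile were found by Pearson's r of log2(CPM + 0.5) over the 12 libraries, among 42839 genes. The libraries share 4 group means, so r mainly follows the heated OE2 group, and it is given as a description with no p. For *Glyma.17G047300* the first 5 were *Glyma.18G042100* (r = 0.991), *Glyma.13G112400* (0.984), *Glyma.13G236500* (0.982), *Glyma.06G036300* (0.981) and *Glyma.19G199300* (0.981). *Glyma.18G042100* and *Glyma.19G199300* are named after PUB21 and PUB22, U-box proteins that attach ubiquitin to other proteins, and *Glyma.13G236500* is named ERF4. *Glyma.09G072000* came at rank 23 with r = 0.973.

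For *Glyma.09G072000* the first 5 were *Glyma.15G180000* (r = 0.993), the ACC synthase gene *Glyma.05G211700* (0.988), *Glyma.17G065000* (0.987), *Glyma.09G147200* (0.982) and *Glyma.04G063200* (0.981). *Glyma.17G065000* is named XTH23, an enzyme type that cuts and rejoins xyloglucan in the cell wall. *Glyma.09G147200* had 1.97 ± 0.42 CPM in OE2 at HT and 0.138 ± 0.022 CPM in TL1 at HT, against 0.151 ± 0.068 CPM in OE2 at NT and 0.228 ± 0.041 CPM in TL1 at NT, from 3 to 9 counts in each library outside heated OE2.

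The profiles of the pair differ in heated TL1, and those of some neighbours in likeness differ there too. Of the 5 genes most like *Glyma.17G047300*, 3 were called higher with heat in OE2 and lower in TL1: *Glyma.13G112400*, *Glyma.18G042100* (2.68, SE 0.10, in OE2 and -1.04, SE 0.16, in TL1) and *Glyma.19G199300* (1.72, SE 0.20, in OE2 and -1.47, SE 0.35, in TL1). *Glyma.13G236500* and *Glyma.06G036300* fell less in TL1, from 52.8 and 27.3 CPM at NT to 37.2 and 23.4 CPM at HT. None of the 4 genes tested in both lines among those most like *Glyma.09G072000* were called in opposite directions. Over all genes tested in both lines the share was 0.195%, so nothing is read from that absence. The choice by likeness itself favours such genes, so these counts are no independent evidence. *Glyma.15G180000*, for which the readable annotation gives no name, had 31.9 ± 2.8 CPM in OE2 at HT and 5.53 ± 0.48 CPM in TL1 at HT, against 5.80 ± 0.42 CPM in OE2 at NT and 6.63 ± 0.13 CPM in TL1 at NT (SD, n = 3 each).

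**Figure D4:**
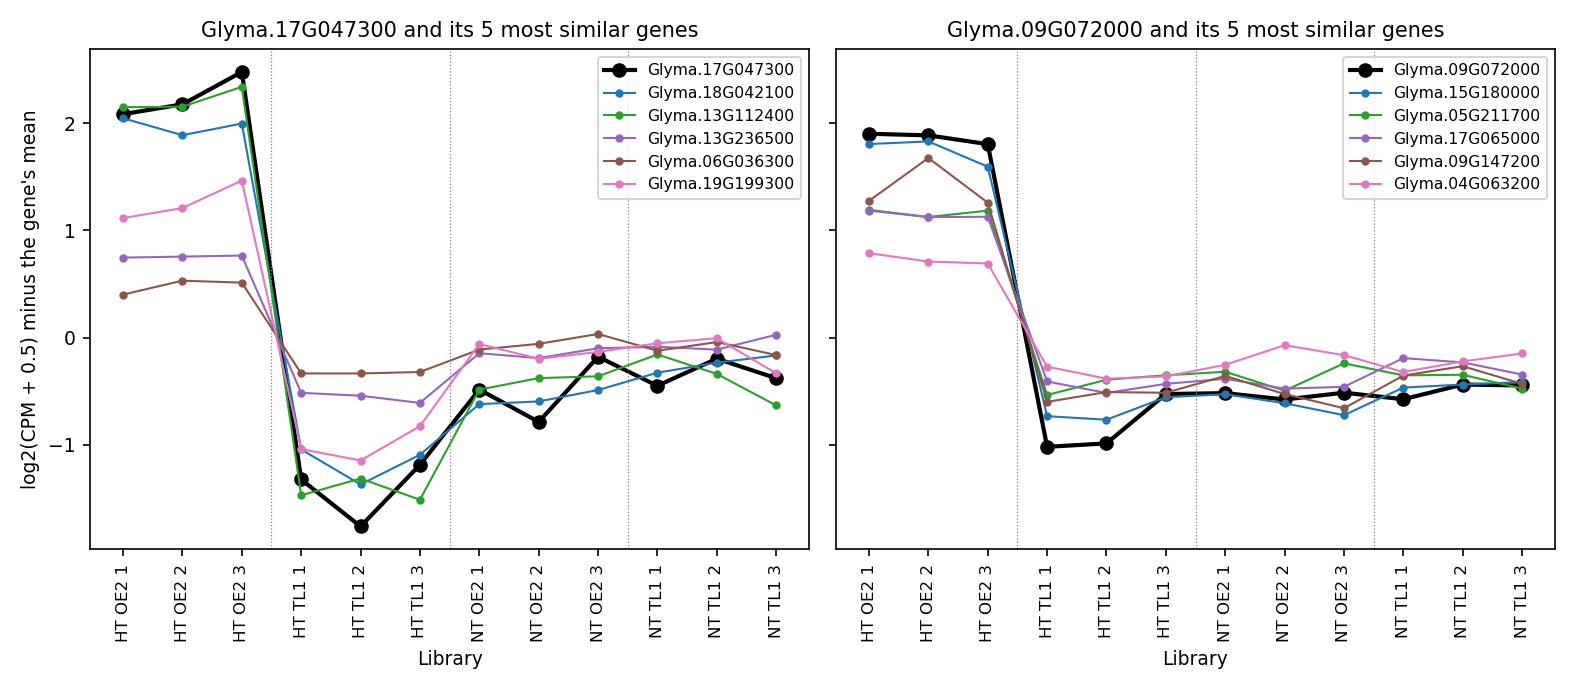
log2(CPM + 0.5) minus each gene's own mean in the 12 libraries, for *Glyma.17G047300* (left) and *Glyma.09G072000* (right), each drawn in black with its 5 most similar genes in colour. Lines only join the points of a gene; all profiles peak in the 3 heated OE2 libraries, and those on the left dip in heated TL1.

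*GmMYB21a* was read as *Glyma.19G006500*, matched by its annotated name. Reads of the endogenous gene and of the construct are not separated in the counts, so the OE2 levels may hold both and their heat change cannot be assigned to either. It had 11.1 ± 0.7 CPM in OE2 at HT and 0.941 ± 0.160 CPM in TL1 at HT, and 39.5 ± 1.7 CPM in OE2 at NT and 5.71 ± 0.59 CPM in TL1 at NT (SD, n = 3 each). It was higher in OE2 at both temperatures and fell with heat in both lines, by 1.83 on the log2 scale (SE 0.09, edgeR adjusted p = 6.17e-10) in OE2 and by 2.60 (SE 0.19, edgeR adjusted p = 9.90e-13) in TL1. At HT its log2 fold change of OE2 over TL1 was 3.60 (SE 0.16, edgeR adjusted p = 4.09e-09). It thus shared with *Glyma.17G047300* and *Glyma.13G112400* the higher level in OE2 at HT and the lower level with heat in TL1. Its highest group was OE2 at NT, whereas that of the ERF017 genes was OE2 at HT. The part of *GmMYB21a* in the ERF017 pattern was not tested. Over the 12 libraries its r with *Glyma.17G047300* was 0.390 and with *Glyma.09G072000* 0.265, as descriptions.

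Genes of anther tissues also differed between the groups, and the 2 lists did so in different ways. The 10 genes with annotated names known from the tapetum, the anther layer that feeds developing pollen, summed to 75.6 to 101.7 CPM in OE2 at HT and 23.7 to 24.6 CPM in TL1 at HT, with 91.9 to 124.0 CPM in OE2 at NT and 99.7 to 128.8 CPM in TL1 at NT. All 10 were called lower with heat in TL1 and 1 in OE2, where 14.7% of all genes tested were called lower in TL1 and 14.3% in OE2, and all 10 had been listed for their HT difference. The 7 genes with names known from pollen summed to 6.36 to 8.66 CPM in OE2 at HT and 14.8 to 16.4 CPM in TL1 at HT, with 48.8 to 52.2 CPM in OE2 at NT and 61.3 to 68.3 CPM in TL1 at NT. All 7 had also been listed for their HT difference, so their calls at HT follow from that choice. Of the 7, 6 were called lower in OE2 at HT, where 196 of the 41260 genes tested were called lower. The same 6 were called lower with heat in OE2, and 6 were called lower with heat in TL1. The gene called higher in OE2 at HT and with heat in OE2, *Glyma.18G271500*, singled out after its values were seen, is named after ANXUR2, an *Arabidopsis* receptor kinase of the pollen tube. It is one of the 80 genes called in opposite directions by heat, with 1.64 ± 0.27 CPM in OE2 at HT and 0.654 ± 0.186 CPM in TL1 at HT, and 0.712 ± 0.214 CPM in OE2 at NT and 1.84 ± 0.30 CPM in TL1 at NT (SD, n = 3 each). Unlike the ERF017 genes it was also called lower in OE2 at NT, with a log2 fold change of -1.37 (SE 0.28, edgeR adjusted p = 0.00216). No gene of either list was at 0 in all libraries of a group. The tapetum genes were lower in heated TL1 than in TL1 at NT, as *Glyma.17G047300* and *Glyma.13G112400* were, but none was called higher with heat in OE2, whereas the 3 ERF017 genes stood 5.54-fold to 9.60-fold above NT there. Their part in the ERF017 pattern was not tested.

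**Figure D5:**
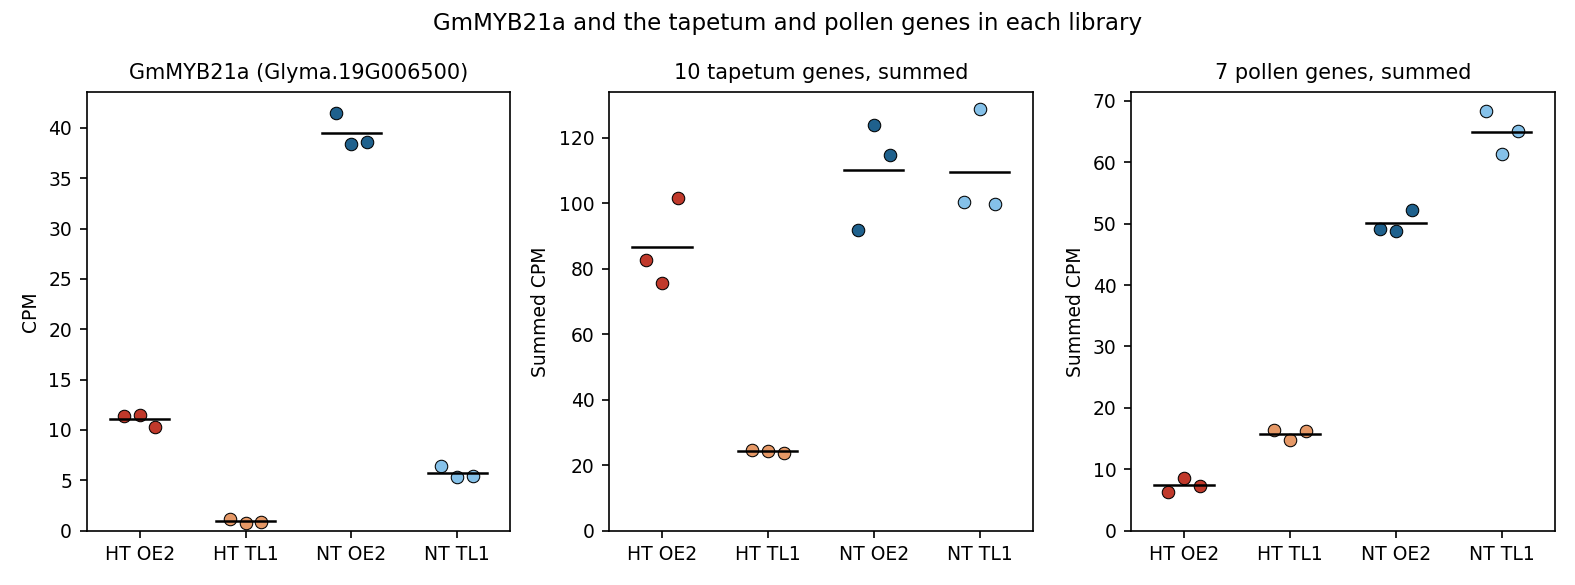
CPM of *GmMYB21a* (left), summed CPM of 10 tapetum genes (middle) and summed CPM of 7 pollen genes (right), with 1 point per library, a bar at the mean of 3 libraries and axes from 0. *GmMYB21a* peaks in OE2 at NT (39.5 CPM), the tapetum sum is lowest in heated TL1 (23.7 to 24.6 CPM) and the pollen sum is lowest in heated OE2 (6.36 to 8.66 CPM).

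Library totals ranged from 32058303 to 39654590 counts. Within groups the libraries correlated at r = 0.989 to 0.994 across genes, which are not independent, and each pair of replicates differed by more than counting noise. The TMM scaling factors of heated OE2 were the highest, at 1.03 to 1.06.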

How the data were processed

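The authors deposited 1 table of whole-number read counts per gene, not normalized. Reads had been trimmed and filtered. The submitters' processing notes list StringTie 2.1.3b. The aligner, genome build and use of strand are not given in the sources used here, so antisense and overlapping genes cannot be told apart. From these counts, CPM with TMM scaling and edgeR 4.0.16 quasi-likelihood fits (R 4.3.3, filterByExpr, Benjamini-Hochberg over all genes tested) were computed, each comparison on its own 6 libraries and the interaction on 12. Genes were called at an adjusted p under 0.05 and a log2 change of 1 or more in either direction. Replicates are biological per the study's methods; libraries of a group were checked for duplicates (chi-square per degree of freedom of at least 2.71). The models were tested on simulated data. Totals were 32058303 to 39654590 counts.

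The genes and lists were chosen with earlier results of these data known. Lists came from annotation words in 578 readable rows of the study's HT differences. Named genes are the pair, *Glyma.13G112400*, other AP2-domain or ACC synthase genes, *GmMYB21a* and the 5 most similar genes of each. The RefSeq table matched 0 of the pair, so neither coordinates nor sequences are given. Alternatives were RLE size factors, DESeq2 1.42.0, no filter, 12 libraries in a fit, a replicate block, each library left out, no fold threshold, and, for likeness, a pseudocount of 2 and ranks. Figures used matplotlib 3.10.9.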

Additional observations from a re-analysis of the deposited data

Results flagged for a closer look

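All values here are the heat change in OE2 minus that in TL1 on the log2 scale. For *Glyma.17G047300* the value was 5.42, and its libraries moved in opposite directions with heat in the lines; the gene was chosen for this and the difference was not tested. Of 36 other genes, 25 differed in heat change between OE2 and TL1 by edgeR's interaction of line and temperature at an adjusted p under 0.05. So did 12.4% of all 42839 genes. These 36 were the other AP2-domain and ACC synthase genes, *GmMYB21a*, the genes most like the pair and those next to ERF017 genes by identifier. They leave out the tapetum and pollen lists, which were also chosen by an HT difference. By the same test 9 of the 10 tapetum genes had a higher heat change in OE2. Of the 7 pollen genes, 1 had a higher and 5 a lower one. The value was 4.31 for *Glyma.13G112400*. Among the genes most like *Glyma.17G047300* it was 3.73 for *Glyma.18G042100*, 3.20 for *Glyma.19G199300*, 1.41 for *Glyma.13G236500* and 0.76 for *Glyma.06G036300*. Among those most like *Glyma.09G072000* it was 4.38 for *Glyma.09G147200*, 2.72 for *Glyma.15G180000*, 2.0 for *Glyma.17G065000*, 1.63 for the ACC synthase gene *Glyma.05G211700* and 1.01 for *Glyma.04G063200*. Outside heated OE2 *Glyma.09G147200* had only 3 to 9 counts per library. It passed the filter through heated OE2 alone, so its 4.38 is a description. Among the other AP2-domain genes it was 2.59 for *Glyma.12G117000*, 2.21 for *Glyma.13G298600*, 1.87 for *Glyma.01G225000*, 1.63 for *Glyma.05G063500*, 1.56 for *Glyma.11G036400*, 1.55 for *Glyma.08G137600* and 1.42 for *Glyma.12G226600*. The remaining AP2-domain genes with a difference were *Glyma.14G171500* with 1.26, *Glyma.02G016100* with 1.25, *Glyma.17G145300* with 1.22, *Glyma.15G077100* with 1.2 and *Glyma.02G236800* with 1.07. It was 1.21 for the ACC synthase gene *Glyma.08G018000* and 0.77 for *GmMYB21a*, which fell less with heat in OE2 than in TL1. *Glyma.09G072100*, next to *Glyma.09G072000* by identifier, had -0.42. The AP2-domain genes were listed for their HT difference and the genes most like the pair were chosen by likeness over the same libraries, so their differences follow in part from that choice.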

How the results depend on the processing

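Leaving out single libraries gave ranges of 4.82 to 5.68 for *Glyma.17G047300* between the lines at HT, 3.06 to 3.52 with heat in OE2, -2.56 to -1.69 with heat in TL1 and 4.96 to 5.82 for the difference of heat changes. At NT its range was -0.45 to 0.018, the sign turning without the second NT library of OE2. For *Glyma.09G072000* the ranges were 2.73 to 3.01 at HT, -0.55 to -0.27 with heat in TL1 and 2.74 to 3.02 for the difference, and in each the value farthest from zero came without the third heated TL1 library. The signs of all other values of the pair held under all alternatives. With no fold threshold the genes called were 4567 at HT, 4472 at NT, 27976 with heat in OE2, 29476 with heat in TL1 and 5317 for the interaction, 393 were called in opposite directions by heat and 4 AP2-domain genes passed at NT. The genes most like the pair depended on the measure: with a pseudocount of 2, 2 of the 5 were shared for *Glyma.17G047300* and 3 of 5 for *Glyma.09G072000*, and with Spearman's rho 0 of 5 for both.

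Replicate numbers did not pair the libraries: deviations from the group means correlated at -0.22 to 0.17 over 18 same-numbered pairs, and 5 of 12 libraries correlated best with their own number. With the replicate block, 817 genes were called at HT, and the HT difference was 5.28 for *Glyma.17G047300* and 2.84 for *Glyma.09G072000*. Depth limits *Glyma.17G047300* in heated TL1, at 3 to 12 counts.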
